A study of Mus musculus with 36 samples.

Results

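Npas4, Btg2, Cyr61, Dusp1, Ier2 and Arc are genes that neurons switch on within minutes of activity. The 6 genes were selected on earlier results of the same libraries, mainly their lower levels after nerve injury in the prefrontal cortex and, for Btg2, in the nucleus accumbens, and they are 6 of the 31554 genes of the deposited table. Levels were measured by RNA sequencing of polyadenylated RNA in 3 brain regions, nucleus accumbens (NAc), prefrontal cortex (PFC) and periaqueductal grey (PAG), of adult male C57BL/6 mice. Each region had 6 libraries from sham-operated mice and 6 from mice with spared nerve injury (SNI), a partial cut of the sciatic nerve that leaves lasting neuropathic pain, and all tissue was collected 2.5 months after surgery. No group carried a transgene or a drug treatment according to the labels. Libraries were made from pooled RNA, and the labels do not say how many mice stand behind a library or whether regions share animals. A p-value here sets a difference against the variation among libraries, and part of that variation may be technical.

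Immediate early genes are transcribed without new protein synthesis when calcium entry or growth factor signals activate kinases, which act on factors such as CREB at cAMP response elements and SRF at CArG boxes. Npas4 encodes a neuron-specific transcription factor that adjusts inhibitory synapses to activity, and Ier2 encodes a nuclear protein of the early response. Btg2 recruits the deadenylase complex that shortens messenger RNA tails, Dusp1 is a phosphatase that turns off MAP kinases, Cyr61 (now named Ccn1) is a secreted matrix protein, and Arc acts at the synapse in the removal of AMPA receptors.

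The 250 bases before the start annotated in RefSeq are shown because the promoters of such genes are known to carry elements that respond to activity. The RefSeq promoter table matched 4 of the 6 genes, not Ier2 and Arc. The sequences were taken from RefSeq (GRCm38.p6, the same build as mm10) and run 5′ to 3′ on the strand of the gene, with capitals marking the CRE core TGACG, its reverse complement CGTCA, and the complete CRE TGACGTCA in which both overlap.
Npas4, chr19:4989972-4990221, minus strand: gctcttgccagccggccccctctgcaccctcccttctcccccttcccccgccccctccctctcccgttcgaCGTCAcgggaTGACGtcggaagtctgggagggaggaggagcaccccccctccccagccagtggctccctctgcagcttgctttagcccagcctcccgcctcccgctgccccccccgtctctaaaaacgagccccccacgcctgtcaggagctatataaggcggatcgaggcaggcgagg
Btg2, chr1:134079156-134079405, minus strand: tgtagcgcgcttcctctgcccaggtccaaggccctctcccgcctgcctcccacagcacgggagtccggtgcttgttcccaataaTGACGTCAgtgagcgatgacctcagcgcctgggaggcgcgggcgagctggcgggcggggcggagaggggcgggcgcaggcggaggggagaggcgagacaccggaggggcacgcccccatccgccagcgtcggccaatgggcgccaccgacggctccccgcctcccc
Cyr61, chr3:145649986-145650235, minus strand: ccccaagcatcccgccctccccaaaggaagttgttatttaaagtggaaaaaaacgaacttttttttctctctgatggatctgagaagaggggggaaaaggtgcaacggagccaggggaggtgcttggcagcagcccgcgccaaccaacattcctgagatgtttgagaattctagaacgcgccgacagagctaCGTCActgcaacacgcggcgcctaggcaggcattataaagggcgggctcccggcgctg
Dusp1, chr17:26508473-26508722, minus strand: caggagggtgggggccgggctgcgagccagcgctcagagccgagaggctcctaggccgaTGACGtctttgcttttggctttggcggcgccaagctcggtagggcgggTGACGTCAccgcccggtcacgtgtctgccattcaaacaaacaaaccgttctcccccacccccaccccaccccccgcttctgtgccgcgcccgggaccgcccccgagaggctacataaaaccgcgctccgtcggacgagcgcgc
The complete CRE was found in the Btg2 window, from 166 to 159 bases before the start, and in the Dusp1 window, from 143 to 136 bases before it. It is present in 1.55% of 32851 promoter windows of the same length, searched on both strands. The core was in each of the 4 windows that could be read, against 17.8% of all windows. A CArG box, held by 1.47% of windows, and the AP-1 letters TGANTCA, held by 6.75%, were not found in these 4, and the letters TATAAA, held by 12.4%, were found only in the Cyr61 window, from 25 to 20 bases before the start. A match of letters is a description of the window and was not tested as a binding site.

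Depth was 27598522 to 64868486 assigned reads a library, and the 6 genes had 18 to 9809 reads each. The labelled regions carried their markers: the summed level of 9 medium spiny neuron genes was 1314 to 2006 RPKM (reads per kilobase of gene, scaled to the depth of the library) in NAc and at most 137 elsewhere, and that of 10 cortical excitatory genes was 642 to 795 in PFC. NAc libraries varied in the cortical genes, from 11.6 to 186 RPKM in sham and from 11.1 to 242 in SNI libraries, and PFC libraries in 10 oligodendrocyte genes, from 271 to 1000 and from 246 to 1194. None of the markers checked singly for each region was at 0. In tissue of mixed cells, fewer cells of a type and less RNA per cell cannot be told apart. The span of the Dusp1 gene model overlaps those of Ergic1 and Gm8225 on the opposite strand. Whether the counted bases overlap was not checked, and the strand setting of the counting is not known. Whether reads of these genes entered the Dusp1 values therefore cannot be told.

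**Figure D1:**
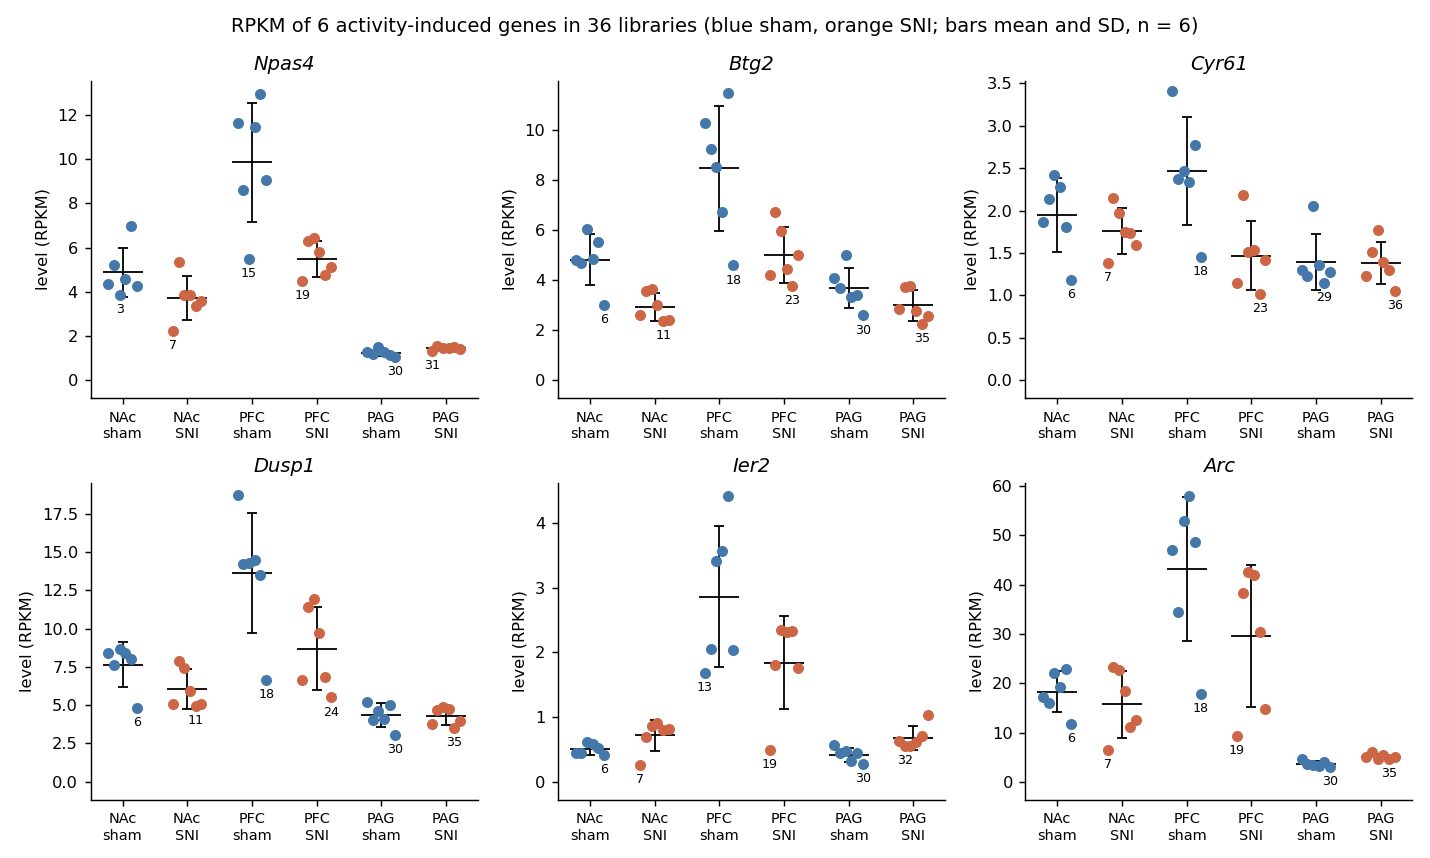
Level of each gene (vertical axis, RPKM, linear) in the 36 libraries, by region and surgery, with points for libraries, bars for the mean and SD of 6, and the number of the lowest library of each group. PFC sham libraries are the highest group for all 6 genes, and only for Arc in PAG do sham and SNI not overlap.

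In sham mice all 6 genes were highest in PFC, and 5 of them were at least 2-fold higher in PFC than in PAG. This comparison did not choose the genes, but it is not independent of their choice. The PFC sham libraries, and for Btg2 those of NAc, also entered the comparisons with SNI that chose the genes. The calls and p-values that use these libraries are therefore not free of that selection. Among SNI libraries the mean was highest in PFC for each gene but Cyr61, at 1.47 RPKM in PFC against 1.76 in NAc. Levels were compared by limma on log2(RPKM + 0.5) over all 36 libraries, with Benjamini-Hochberg adjustment over 15639 genes, and calls needed an adjusted p under 0.05 with a change of 2-fold or more. PFC exceeded PAG by that rule in 5 of the 6 genes, against 7.74% of all genes (15.1% in either direction). PFC exceeded NAc in 2 of 6, against 3.47% (6.85% in either direction), and NAc exceeded PAG in 2 of 6, against 6.59% (13% in either direction). Median-of-ratios scaling moved the median of all genes by 0.12 on the log2 scale in PFC over PAG and turned no direction among the 6 genes.

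Arc had the widest range between regions. Its level in sham libraries was 17.9, 47.8 and 57.9 RPKM (lowest, median, highest) in PFC, 11.7, 18.3 and 23 in NAc and 3.10, 3.43 and 4.56 in PAG. Every NAc library lay above every PAG library, while PFC sham library 18, at 17.9 RPKM, lay within the NAc range. The log2 fold change was 3.32 ± 0.30 (SE) for PFC over PAG, 2.16 ± 0.30 for NAc over PAG and 1.16 ± 0.30 for PFC over NAc (limma adjusted p = 9.02e-12, 1.30e-07 and 0.00141).

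Npas4 followed the same order. Sham libraries held 5.47, 10.2 and 12.9 RPKM in PFC, 3.85, 4.46 and 6.98 in NAc and 1.04, 1.23 and 1.49 in PAG. The PAG values stood apart from both other regions, and PFC and NAc met only at PFC library 15 and NAc library 5. The log2 fold change was 2.54 ± 0.15 for PFC over PAG and 1.62 ± 0.15 for NAc over PAG (limma adjusted p = 1.07e-16 and 1.51e-11). PFC over NAc, at 0.92 ± 0.15, had an adjusted p of 2.84e-06 by limma and stayed under the 2-fold rule.

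Ier2 was at a low level outside PFC. Its sham values were 1.68, 2.73 and 4.41 RPKM in PFC, 0.407, 0.483 and 0.620 in NAc and 0.268, 0.443 and 0.568 in PAG, where the lowest libraries had 18 reads. All 6 PFC sham libraries lay above all NAc and PAG sham libraries. PFC exceeded NAc by 1.69 ± 0.20 and PAG by 1.82 ± 0.20 on the log2 scale (limma adjusted p = 5.76e-09 and 5.37e-10), and because 0.5 is added to each level these understate the change of so low a gene. NAc and PAG did not differ beyond their spread (0.13 ± 0.20, limma adjusted p = 0.568), and with the GC trend of the libraries removed the difference was -0.22.

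Btg2 and Dusp1 had intermediate ranges. Btg2 in sham libraries held 4.58, 8.88 and 11.5 RPKM in PFC, 3.02, 4.81 and 6.04 in NAc and 2.58, 3.53 and 4.99 in PAG, so that NAc and PAG overlapped. Its PFC over PAG difference of 1.07 ± 0.17 passed (limma adjusted p = 1.15e-06), and fell below 2-fold with a pseudocount of 1 RPKM (0.99), with array weights (0.93), and without PFC sham library 17 or PAG sham library 30 (lowest value 0.98). Dusp1 held 6.62, 14.3 and 18.7 RPKM in PFC, 4.81, 8.20 and 8.68 in NAc and 3.08, 4.37 and 5.23 in PAG. Apart from PFC sham library 18, all PFC sham values of Dusp1 were above all other sham values. PFC over PAG was 1.5 ± 0.19 for Dusp1 (limma adjusted p = 8.88e-09), while PFC over NAc was 0.76 ± 0.19 and NAc over PAG 0.74 ± 0.19, both under 2-fold.

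Cyr61 stayed under the 2-fold rule in all 3 comparisons of regions. Its sham values of 1.45, 2.42 and 3.41 RPKM in PFC, 1.18, 2.0 and 2.41 in NAc and 1.14, 1.28 and 2.05 in PAG overlapped in every pair of regions. PFC over PAG was 0.64 ± 0.14 (limma adjusted p = 0.000157) and NAc over PAG 0.37 ± 0.14 (limma adjusted p = 0.0218). PFC over NAc, at 0.27 ± 0.14, had a limma adjusted p of 0.103.

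Further genes of the early response were compared by the same rule. Of 26 further fast activity-induced genes, 17 were called higher and 0 lower in PFC than in PAG, beside 7.74% of all genes called higher, with a median log2 fold change of 1.43 against -0.09 over all genes. NAc exceeded PAG in 12 of the 26, beside 6.59% of all genes, and PFC exceeded NAc in 4, beside 3.47%, with 0 lower in either. Examples for PFC over PAG were Egr3, a zinc finger factor, with 24.2 ± 5.77 against 0.366 ± 0.126 RPKM, and Nr4a1, an orphan nuclear receptor, with 43.1 ± 10.7 against 2.97 ± 0.690 (SD, n = 6). Of 20 factors that switch such genes on, 9 were higher and 0 lower in PFC than in PAG, among them Camk2a, a calcium-dependent kinase, at 532 ± 51.4 against 28 ± 2.19 RPKM. Of 17 slower activity-induced genes, 10 were higher and 0 lower, among them Rasgrp1, a Ras activator, at 131 ± 19.1 against 6.03 ± 0.572. Of 6 measured members of the BTG and TOB family, to which Btg2 belongs, 0 were called in PFC over PAG, 3 had an unadjusted limma p under 0.05, and the median was 0.16.

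In PFC the 6 genes were lower in SNI than in sham libraries, which is the difference that chose them, so these values are a description with no test. Each of the 6 SNI libraries lay below the sham median for each of the 6 genes, and log2 fold changes ran from -0.76 to -0.54 with a median of -0.63, against 0.003 over 15192 genes. No gene of the table was called in PFC (0% of 15192 by limma, 220 with an unadjusted p under 0.05; voom on the recovered reads also called 0, with 205). The sham and SNI values overlapped for every one of the 6 genes. For PFC and NAc, the share of all genes with libraries set apart to a like degree was not counted.

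Npas4 had the lowest fold change. PFC levels were 5.47, 10.2 and 12.9 RPKM (lowest, median, highest) in sham and 4.48, 5.46 and 6.43 in SNI libraries, a log2 fold change of -0.76 ± 0.17 (SE). Sham library 15, at 5.47 RPKM, lay among the SNI libraries, and the other 5 sham libraries lay above all SNI libraries. Its spread was narrower after SNI, with an SD of 0.812 against 2.70 RPKM.

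Btg2 and Cyr61 showed the same picture with another library. Btg2 went from 4.58, 8.88 and 11.5 RPKM in sham to 3.77, 4.73 and 6.71 in SNI libraries (-0.67 ± 0.19). Cyr61 went from 1.45, 2.42 and 3.41 to 1.02, 1.46 and 2.18 RPKM (-0.59 ± 0.16). For both genes sham library 18 was the lowest sham library and 5 sham libraries lay above all SNI libraries.

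Dusp1, Ier2 and Arc were more spread. Dusp1 levels were 6.62, 14.3 and 18.7 RPKM in sham and 5.5, 8.30 and 12 in SNI libraries (-0.62 ± 0.24). Ier2 levels were 1.68, 2.73 and 4.41 in sham and 0.495, 2.06 and 2.35 RPKM in SNI libraries (-0.54 ± 0.27), with SNI library 19 far below the other 5. Arc levels were 17.9, 47.8 and 57.9 in sham and 9.26, 34.3 and 42.6 RPKM in SNI libraries (-0.64 ± 0.39). For Arc, SNI libraries 19 and 24 held 9.26 and 14.7 RPKM and the other 4 held 30.4 to 42.6. Without SNI library 19 the log2 fold change was -0.36 for Arc and -0.31 for Ier2, and without sham library 18 it was -0.87 and -0.61. With array weights Arc was at -0.24 and Dusp1 at -0.35.

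In NAc 5 of the 6 genes were lower after SNI and Ier2 was higher, again without a test for these genes. Limma called 0% of 15264 genes (660 with an unadjusted p under 0.05; voom called 0, with 621). Btg2 was the clearest, with 3.02, 4.81 and 6.04 RPKM in sham and 2.35, 2.79 and 3.65 in SNI libraries (-0.62 ± 0.14). Only sham library 6 reached into the SNI range, and the other 5 sham libraries lay above all SNI libraries.

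Npas4 in NAc held 3.85, 4.46 and 6.98 RPKM in sham and 2.24, 3.72 and 5.36 in SNI libraries (-0.36 ± 0.17), and Dusp1 held 4.81, 8.20 and 8.68 and then 4.97, 5.5 and 7.92 (-0.31 ± 0.15). The groups overlapped for both, although all 6 SNI libraries lay under the sham median of Dusp1. Cyr61 was nearly level at 1.18, 2.0 and 2.41 against 1.38, 1.74 and 2.15 RPKM (-0.10 ± 0.13). Arc was spread most, at 11.7, 18.3 and 23 against 6.43, 15.4 and 23.4 RPKM (-0.30 ± 0.28), with 3 SNI libraries on each side of the sham median. Without SNI library 7 the log2 fold change of Arc was -0.08 and the median of the 6 genes moved from -0.31 to -0.16, and with array weights these were -0.15 and -0.18.

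Ier2 in NAc was at 0.407, 0.483 and 0.620 RPKM in sham and at 0.253, 0.804 and 0.915 in SNI libraries (0.26 ± 0.14). Of the 6 SNI libraries 5 lay above every sham library, and library 7 lay below every one. The log2 fold change was 0.12 with the GC trend removed, 0.38 with a pseudocount of 0.1 RPKM and 0.37 by voom. NAc library 7 also had the highest level of Slc17a7, a vesicular glutamate transporter that marks cortical excitatory cells, at 178 RPKM, and sham library 6 had the next highest, at 139. With the cortical marker score as a covariate the log2 fold changes in NAc ranged from -0.64 for Btg2 to 0.24 for Ier2.

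The lists of related genes gave no call in either region. Of the further fast activity-induced genes, 0 of 25 in NAc and 0 of 24 in PFC passed, and 1 in each had an unadjusted limma p under 0.05. In NAc this was Fos, an AP-1 subunit, at 5.27 ± 1.24 RPKM in sham against 3.45 ± 1.47 after SNI (SD, n = 6; limma adjusted p = 0.780). In PFC it was Gadd45b, a stress sensor, with 4.30 ± 0.584 and 3.48 ± 0.776 RPKM (limma adjusted p = 0.99997). The list median was 0.04 in NAc and -0.08 in PFC, against -0.02 and 0.003 over all genes, and the 6 selected genes had -0.31 and -0.63. In PFC 17 of the 24 lay below 0. The other 7 lists likewise had 0 calls in either region.

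**Figure D2:**
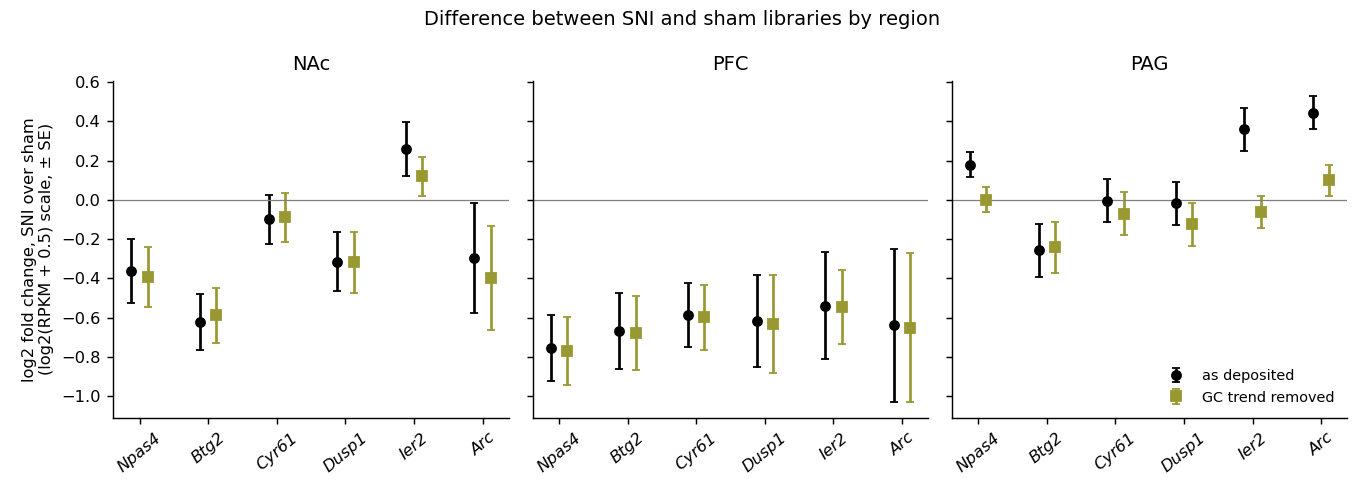
Log2 fold change of SNI over sham (vertical axis, log2(RPKM + 0.5) scale) with its SE for each gene in NAc, PFC and PAG, from the deposited values (circles) and after removal of the GC trend of each library (squares). In PFC all 6 genes sit between -0.76 and -0.54 as deposited and between -0.77 and -0.55 with the trend removed, while in PAG Ier2 and Arc move from 0.36 and 0.44 to -0.06 and 0.10.

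PAG was the region whose SNI comparison did not choose the genes, and there Arc, Ier2 and Npas4 were higher after SNI by limma, while Btg2, Cyr61 and Dusp1 did not pass. These calls were lost when the relation of each library to GC content was taken out. Over all genes 35.2% of 15592 were called in PAG, 21.5% higher and 13.7% lower, so 3 of 6 higher stands beside a high background. With quantile normalization the split over all genes turned from 3360 higher and 2135 lower to 2920 higher and 4020 lower.

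Arc in PAG held 3.10, 3.43 and 4.56 RPKM in sham and 4.58, 5.02 and 5.99 in SNI libraries. Every SNI library lay above every sham library, by 4.58 against 4.56 RPKM at the closest, as was the case for 13.3% of all genes. The log2 fold change was 0.44 ± 0.08 (limma adjusted p = 0.00123) and stayed between 0.40 and 0.50 when any 1 library was left out. Over the 6 genes and 3 regions, this was the only case in which sham and SNI libraries did not overlap.

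Ier2 in PAG held 0.268, 0.443 and 0.568 RPKM in sham and 0.546, 0.622 and 1.04 in SNI libraries, from 18 to 46 reads. Sham library 25, at 0.568, overlapped SNI libraries 32 and 33, and all 6 SNI libraries lay above the sham median. The log2 fold change was 0.36 ± 0.11 (limma adjusted p = 0.0202), or 0.59 with a pseudocount of 0.1 RPKM and 0.69 by voom. Npas4 held 1.04, 1.23 and 1.49 in sham and 1.32, 1.45 and 1.56 RPKM in SNI libraries, with sham library 27 inside the SNI range. Its log2 fold change of 0.18 ± 0.06 (limma adjusted p = 0.0425) lost its call in 10 of 12 cases when 1 library was left out (without sham library 25, 26, 28, 29 or 30, or SNI library 32, 33, 34, 35 or 36; highest adjusted p 0.0932), with no filter on low genes (0.0832) and with quantile normalization (0.0710).

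Btg2 in PAG was at 2.58, 3.53 and 4.99 RPKM in sham and at 2.25, 2.81 and 3.77 in SNI libraries, and the difference of -0.26 ± 0.13 did not pass (limma adjusted p = 0.153). Dusp1, at 3.08, 4.37 and 5.23 against 3.52, 4.34 and 4.88, had -0.02 ± 0.11 (limma adjusted p = 0.913), and Cyr61, at 1.14, 1.28 and 2.05 against 1.05, 1.35 and 1.77, had -0.005 ± 0.11 (limma adjusted p = 0.976). The groups of Dusp1 and Cyr61 overlapped over most of their range. Those of Btg2 overlapped in part, with 2 sham libraries above all SNI libraries and 2 SNI libraries below all sham libraries.

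The GC slope of a library moved with surgery in PAG. It is the slope of the log2 levels of a library, relative to the region mean, on the GC content of the genes, in log2 units per 10 percentage points. It ran from -0.214 to -0.0255 in the sham and from 0.0359 to 0.217 in the SNI libraries of PAG, so that GC slope and surgery cannot be told apart there. Of PAG genes with a GC content over 60%, 78.3% were called higher, and of those at or under 45%, 0.378% were. Ier2 has a GC content of 60.9%, Arc of 59.0%, Npas4 of 55.6%, Dusp1 of 54.0%, Cyr61 of 52.7% and Btg2 of 49.7%.

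After the GC trend of each library was removed, 0 of the 6 genes were called in PAG, while 2019 of all genes were. Arc was then at 0.10 (limma adjusted p = 0.453), Ier2 at -0.06 (0.668), Npas4 at -0.0001 (0.9996) and Btg2 at -0.24 (0.250). With the GC slope as a covariate limma called 0 genes in PAG (1386 with an unadjusted p under 0.05). In 1 model of all 36 libraries, which shares the larger spread of NAc and PFC, the fold changes were unchanged and 0 of the 6 genes were called (limma adjusted p = 0.283 for Arc, 0.179 for Ier2 and 0.391 for Npas4).

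**Figure D3:**
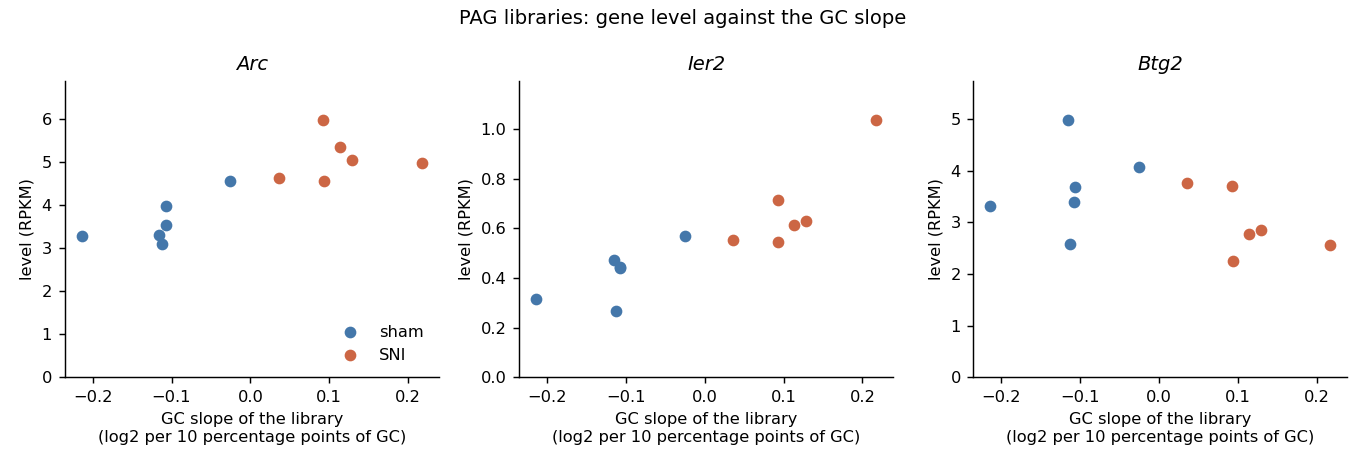
Level (vertical axis, RPKM, from 0) of Arc, Ier2 and Btg2 against the GC slope of the library (horizontal axis, log2 units per 10 percentage points of GC) in the 12 PAG libraries, sham in blue and SNI in orange. Sham libraries all lie at or under -0.0255 and SNI libraries at or above 0.0359, so the points of the groups share no part of the horizontal axis.

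Other measures also differed between the PAG groups. Mbp, the myelin basic protein gene, averaged 228 ± 20.5 RPKM in sham against 347 ± 40.1 after SNI, and Cldn5, an endothelial junction gene, at 8.08 ± 0.742 and 11.3 ± 0.924 (SD, n = 6). The summed level of 10 microglia genes was 96.7 to 105 RPKM in sham and 108 to 131 in SNI libraries, and that of 10 oligodendrocyte genes 1270 to 1461 and 1355 to 1857. The summed level of 10 midbrain and PAG neuron genes was 323 to 410 RPKM in sham and 214 to 370 in SNI libraries, and that of 10 astrocyte genes 940 to 1017 and 945 to 1060. Their part in the values of Arc, Ier2 and Npas4 was not tested.

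Among the further fast activity-induced genes, 7 of 23 rose in PAG after SNI and 0 fell, with a median of 0.21 against -0.02 over all genes. Of all genes 21.5% rose and 13.7% fell, and with the GC trend removed 1201 of 15426 rose and 818 fell, so the list counts that follow stand beside a high background and nothing is read from them about the lists. Gadd45g, a stress sensor, was at 1.96 ± 0.187 RPKM in sham against 3.56 ± 1.03 in SNI libraries, and Junb, an AP-1 subunit, 0.326 ± 0.0905 and 0.738 ± 0.346 (limma adjusted p = 0.000765 and 0.0132). With the GC trend removed 2 of 23 passed, Gadd45g and Dusp6, and the median was 0.05. Of 10 synaptic partners of Arc, 6 rose and 1 fell, or 3 and 0 with the GC trend removed: Sh3gl1, an endophilin, Dlg4, the scaffold PSD-95, and Camk2b, a kinase. Of the factors that switch on early genes 9 of 20 rose and 2 fell, or 2 and 0 with the trend removed, and of 6 BTG and TOB genes 0 were called, with 1 at an unadjusted limma p under 0.05. The slower activity-induced genes had 3 higher and 3 lower of 17, dimer partners and targets of Npas4 2 and 1 of 10, dual specificity phosphatases 2 and 1 of 9, and the CCN family with YAP targets 1 and 0 of 7.

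Within groups most pairs of the 6 genes had a positive correlation from library to library, with Ier2 in PAG SNI libraries as an exception. Centring each gene by its group takes out the difference of group means that chose the genes. It does not take out variation among the same NAc and PFC libraries, which may have had a part in that choice. Of 90 correlations (15 pairs in each of 6 groups of 6 libraries), 82 were positive, and 5 of the 8 that were not were those of Ier2 with each other gene in PAG SNI libraries. With 6 libraries none passed alone: 23 had an exact permutation p under 0.05 for Pearson's r and 12 for Spearman's rho, and 0 had an adjusted p under 0.05 (smallest 0.156 and 0.239 over 90 tests). The smallest p that 720 pairings allow is 0.00139, which becomes 0.125 where it stands alone among 90.

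The median r over the 15 pairs was 0.76 in NAc sham, 0.77 in NAc SNI, 0.28 in PFC sham, 0.67 in PFC SNI, 0.70 in PAG sham and 0.30 in PAG SNI libraries. The strongest single pair was Btg2 and Dusp1 in NAc SNI libraries (r = 0.98, rho = 0.94, exact permutation p = 0.00694 and 0.0167, adjusted p = 0.156 and 0.239). In the 4 libraries left without the 2 farthest from the median, its r was 0.95. Cyr61 and Dusp1 in PFC sham libraries had r = 0.95 and rho = 0.49 (exact permutation p = 0.0319 and 0.356, adjusted p = 0.173 and 0.571), and r = -0.96 without libraries 13 and 18, so that relation rests on them. The lowest value was that of Cyr61 and Ier2 in PAG SNI libraries (r = -0.84, rho = -0.89, exact permutation p = 0.0292 and 0.0333, adjusted p = 0.173 and 0.239). Whether the medians differ between groups was not tested. With the GC trend removed the medians were 0.84, 0.87, 0.71, 0.69, 0.62 and 0.50 in the same order of groups.

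Over all 36 libraries centred by group, all 15 pairs were positive with a median r of 0.47, and 8 passed by r and 11 by rho (adjusted over 15, 100000 permutations within groups). The permutations treat the 36 libraries as independent, which would not hold if regions share mice, so values by region are given as well. Btg2 and Cyr61 were the closest pair (r = 0.83, rho = 0.79, permutation p = 1e-05 for both, the smallest the permutations can give; adjusted p = 7.5e-05). Without NAc sham library 6 and PFC sham library 18 their r was 0.75, and it was 0.83 in NAc, 0.89 in PFC and 0.72 in PAG. Among 14296 genes expressed in all 3 regions, no gene had a higher r with Cyr61 than Btg2 had.

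Dusp1 was tied to both of these and to Arc. Btg2 and Dusp1 had r = 0.79 and rho = 0.69 (permutation p = 2e-05 and 4e-05, adjusted p = 0.0001 and 0.00015), and 0.94, 0.75 and 0.75 in NAc, PFC and PAG. Dusp1 and Arc had r = 0.78 and rho = 0.75 (permutation p = 1e-05 for both, adjusted p = 7.5e-05), and 0.80, 0.80 and 0.68 by region. Cyr61 and Dusp1 had r = 0.75 and rho = 0.68 (permutation p = 4e-05 and 3e-05, adjusted p = 0.00015), and 0.88, 0.83 and 0.34 by region. Without NAc sham library 6 and PFC sham library 18 these 3 values were 0.67, 0.72 and 0.62.

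Arc was linked to each of the others. Ier2 and Arc had r = 0.70 and rho = 0.62 (permutation p = 0.00043 and 0.00049, adjusted p = 0.00129 and 0.00147), 0.49 without NAc SNI library 7 and PFC SNI library 19, and 0.75, 0.74 and 0.30 in NAc, PFC and PAG. Among 14296 genes, 893 had a higher r with Ier2 than Arc had, and 23 had a higher r with Arc than Ier2 had. Arc had r = 0.54 with Btg2, 0.54 with Cyr61 and 0.47 with Npas4 (permutation adjusted p = 0.00393, 0.00431 and 0.0330), and without the 2 farthest libraries 0.39, 0.40 and 0.56. In PAG alone Cyr61 and Arc had r = -0.20, and Npas4 and Arc 0.12.

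Npas4 and Ier2 were the least tied. Npas4 had r = 0.38, 0.40 and 0.38 with Btg2, Cyr61 and Dusp1, which missed the threshold (permutation adjusted p = 0.0968, 0.0678 and 0.104) while rho, at 0.44, 0.51 and 0.49, passed (0.0209, 0.00804 and 0.0123). Ier2 had r = 0.29, 0.20, 0.17 and 0.27 with Npas4, Btg2, Cyr61 and Dusp1 (permutation adjusted p = 0.203, 0.344, 0.412 and 0.297). Removal of the GC trend raised the last 3 to 0.54, 0.43 and 0.57.

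**Figure D4:**
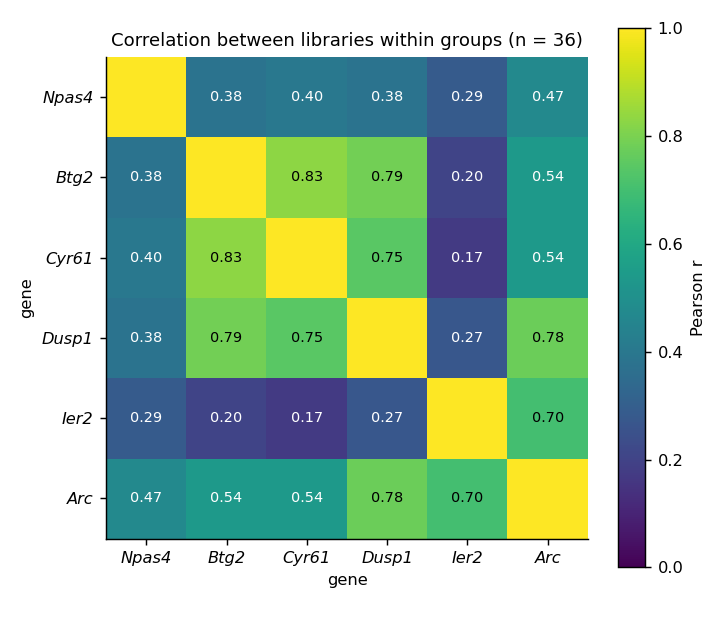
Pearson r (colour, 0 to 1) between each pair of the 6 genes over 36 libraries, each gene centred by its group on the log2(RPKM + 0.5) scale. Btg2, Cyr61 and Dusp1 form the brightest block, from 0.75 to 0.83, and Ier2 is close only to Arc, at 0.70.

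Several single libraries deviated in all 6 genes at once. NAc sham library 6, PFC sham library 18 and PAG sham library 30 lay below their group mean in all 6 genes and were the lowest of their group in 5, 4 and 5 of them, with a mean deviation of -0.43, -0.64 and -0.25 on the log2 scale. NAc SNI library 7, PFC SNI library 19 and PAG SNI library 31 also lay below in all 6 genes, at -0.49, -0.60 and -0.08. They were the lowest of their group in 4, 3 and 1 of the genes. PAG SNI library 35 had a lower mean deviation than library 31, at -0.11, and was the lowest of its group in 3 genes. Libraries 7 and 19 fell most in Arc, by 1.11 and 1.43 on the log2 scale below the group mean. Libraries 6, 18 and 30 carry the last number of their groups and libraries 7, 19 and 31 the first. Whether libraries at the same place in the numbering share mice is not stated, and it was not tested. The GC slope was -0.198 in library 7 and -0.237 in library 19, each the lowest of its group, and 0.129 in library 31. In libraries 6, 18 and 30 it was 0.0587, 0.114 and -0.113. The part of the GC slope in these deviations was not tested. At the other end, PFC sham library 17, PFC SNI libraries 20 and 21 and NAc SNI library 9 lay above the mean in all 6 genes.

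**Figure D5:**
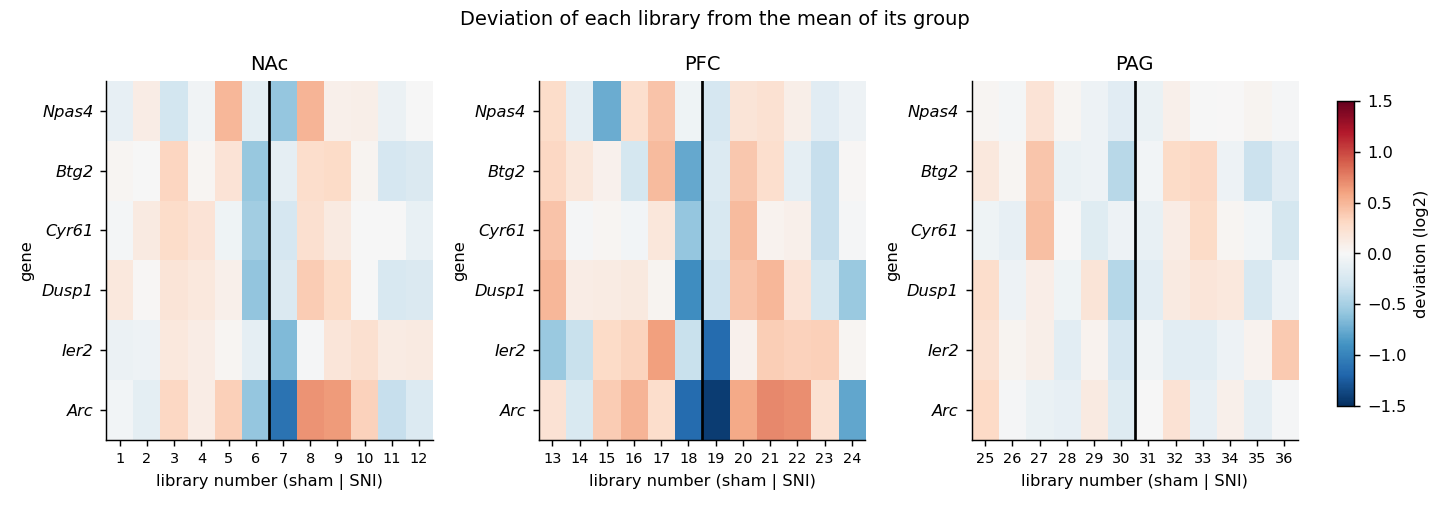
Deviation of each library (horizontal axis, by number, sham left and SNI right of the line) from the mean of its group for each gene (vertical axis), as a colour on the log2 scale. Columns of 1 colour, such as libraries 6, 18 and 19 in blue and 20 and 21 in red, show libraries in which the genes deviate together.

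Of the measures that describe a library, few moved with the genes. Each gene was compared with depth, GC slope and 10 marker scores over the 36 libraries centred by group, 72 correlations in all, and 1 Pearson correlation passed after adjustment over the 72. Ier2 rose with the GC slope (r = 0.76, rho = 0.63, permutation p = 9e-05 and 0.00053, adjusted p = 0.00648 and 0.0382), with r = 0.66 without the 2 farthest libraries and 0.75, 0.80 and 0.79 in NAc, PFC and PAG. For Arc the same correlation was 0.29 and for Npas4 0.16, and for Btg2, Cyr61 and Dusp1 it was -0.26, -0.27 and -0.26 (permutation adjusted p = 0.674, 0.838, 0.674, 0.674 and 0.674), with rho at 0.16, 0.05, -0.33, -0.34 and -0.32. Depth had r between -0.32 and 0.09 with the 6 genes. The cortical marker score had r = -0.40 and rho = -0.20 with Npas4 (permutation adjusted p = 0.426 and 0.676), -0.10 without the 2 farthest libraries, and -0.60, 0.04 and -0.03 in NAc, PFC and PAG. The oligodendrocyte marker score had r = -0.32 and rho = -0.43 with Npas4 (permutation adjusted p = 0.627 and 0.313). Its r was -0.59 without the 2 farthest libraries, and -0.34, -0.41 and -0.36 in NAc, PFC and PAG.

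The 4 genes most like the 6 in their variation were further fast activity-induced genes. Likeness was the r, over 36 centred libraries, with the mean of the 6 genes, each divided by its SD, and it is given as a description because depth and other features of a library are shared. The highest values were those of Nr4a1 (0.85), Sik1 (0.85), a kinase that feeds back on CREB, Fos (0.79) and Fosb (0.78), the latter pair AP-1 subunits. Irf2bp2, Spty2d1, Klhl21, Zbtb21, Tob2 and Zswim3 followed, from 0.77 to 0.75. Over 14296 genes the median was 0.02 and 1.86% exceeded 0.5, and of 21 further fast activity-induced genes expressed in all regions 10 exceeded 0.5, with a median of 0.49. The value was positive for 20 of the 21.

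By single gene, the nearest were Nr4a1 (0.87) and Sik1 (0.84) for Arc, Mfap3 (0.85) and Zfp319 (0.84) for Btg2, Spty2d1 (0.85) and Tiparp (0.82) for Dusp1, and Zbtb10 (0.82) and Spty2d1 (0.80) for Cyr61. For Ier2 they were Midn and Kdm6b (both 0.88), and 17.9% of all genes exceeded 0.5 with Ier2, against 0.252% with Npas4, 2.04% with Arc, 3.51% with Dusp1, 3.99% with Cyr61 and 4.33% with Btg2. For Npas4 the nearest were Ctrl (0.66) and Cyp2t4 (0.64), and 72 genes had a higher r with Npas4 than Arc, its nearest of the 6, had.

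The levels of these genes are given beside those of the 6. Nr4a1 averaged 43.1 RPKM in PFC sham against 33.3 in PFC SNI libraries, and 2.97 and 3.74 in PAG, while Sik1 had 2.64 and 2.35 in PFC and 2.16 and 2.58 in PAG. Fosb had 4.13 and 4.35 RPKM in PFC. Fos had 12.6 and 9.53 in PFC, and 5.28 and 6.13 in PAG. None of these passed in PFC, where 0 genes were called.

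The genes lie on different chromosomes and their gene models were placed by GENCODE M21 on mm10. The starts of these models differ from the RefSeq starts used for the promoter windows, and the Npas4 and Dusp1 windows lie inside the models. Npas4 is at chr19:4984355-4990316, Btg2 at chr1:134075170-134079120, Cyr61 at chr3:145646976-145649981, Dusp1 at chr17:26505590-26562128, Ier2 at chr8:84661331-84662852 and Arc at chr15:74669083-74672570, all on the minus strand. Levels are per kilobase of the gene length in the deposited table, which was 1522 bases for Ier2 and 3277 for Npas4 at the ends of the range. On that scale Arc had the highest mean of the 6 in PFC and NAc sham libraries, and the lowest was that of Cyr61 in PFC, at 2.47 RPKM beside 2.86 for Ier2, and that of Ier2 in NAc, at 0.503. In PAG sham libraries Dusp1, at 4.35 RPKM, stood above Btg2, at 3.67, and Arc, at 3.63.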

How the data were processed

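RNA from 36 libraries (3 regions, sham or SNI, 6 libraries a group) was sequenced, and groups were taken from the sample labels. The authors deposited RPKM values for 31554 genes with gene lengths; TopHat2, HTSeq and mm10 were used per the submitters' processing notes, and their settings are not stated in the labels. Whole reads could be recovered from 100% of the deposited RPKM values within a tolerance of 0.001, which gave depths of 27598522 to 64868486 reads.

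Groups were compared by limma 3.58.1 (R 4.3.3, mean-variance trend) on log2(RPKM + 0.5), two-sided, with Benjamini-Hochberg adjustment over genes that averaged 0.5 RPKM or more and a threshold of 0.05, tested on simulated data. Region by region fits used 12 libraries; sham regions were compared in 1 model of 36. A planned test for counts was replaced, since the unit is RPKM. Correlations used log2(RPKM + 0.5), exact permutation over 720 pairings within groups, or 100000 permutations within groups (Python 3.11.15, scipy 1.17.1). The GC trend of a library is a loess curve (span 0.3) of its log2 levels on transcript GC content from GENCODE M21, which matched 97.9% of gene identifiers. Levels were taken relative to the region mean, or to the mean of all 36 libraries where sham regions were compared. For the correlations the curve was a local line (span 0.3) through means of GC bins, relative to the region mean.

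The 6 genes, 8 lists of related genes and 10 marker lists were chosen with earlier results of these data known. Named besides the 6 were the 10 genes most like their mean and the 2 most like each, without predicted genes, and per list up to 4 genes past the threshold or 2 of smallest p; not all genes this rule names are printed. Alternatives were pseudocounts of 0.1 and 1, no filter or 2 RPKM, median-of-ratios and quantile scaling, array weights, GC correction and each library left out; voom and a cortical score covariate were added after seeing the data.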

Additional observations from a re-analysis of the deposited data

Results flagged for a closer look

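Within groups, 5 of 36 gene and group combinations had a library set apart by a wide gap, where chance alone would flag about 1 in 20. Cyr61 was high in PAG sham library 27, at 2.05 RPKM against at most 1.36 in the other 5. Dusp1 was low in NAc sham library 6, at 4.81 RPKM, and in PFC sham library 18, at 6.62 RPKM. Ier2 was low in NAc SNI library 7, at 0.253 RPKM, and in PFC SNI library 19, at 0.495 RPKM. The genes vary together, so these are not independent.

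All 6 SNI libraries lay below the sham median in PFC and above it in PAG for Npas4, Ier2 and Arc. The share of all genes with this pattern was not counted, and 21.5% of all genes were called higher in PAG by limma. The PAG minus PFC difference of the SNI effect was 0.93 for Npas4, 0.90 for Ier2 and 1.08 for Arc on the log2 scale. This difference was not tested, because the PFC comparison chose the genes. In PAG the GC slope of the libraries and surgery cannot be told apart, and within the PAG groups the correlation with the slope was 0.79 for Ier2, 0.46 for Arc and -0.13 for Npas4. With the GC trend removed the PAG log2 fold changes were -0.0001 for Npas4, -0.06 for Ier2 and 0.10 for Arc.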

How the results depend on the processing

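No paired analysis was possible because the groups share no replicate numbers and the labels tie no library of a region to one of another. The planned test for counts was not run, since the deposited unit is RPKM. Limma on log2(RPKM + 0.5) took its place, and voom on the recovered reads was an alternative added after seeing the data. In PAG the 5495 genes called fell to 2019 with the GC trend removed, 0 with the GC slope as a covariate and 3337 in the model of all libraries, and leaving out 1 library gave 4234 to 6529. The 3 of the 6 genes called there became 1 with a filter of 2 RPKM (which leaves Btg2, Dusp1 and Arc), 0 with the GC trend removed, 0 with the GC slope and 0 in the model of all libraries, and 2 to 3 without 1 library. Directions turned in PAG for Npas4 (-0.000105 with the GC trend removed), Ier2 (-0.0624 and -0.22 with the trend and the slope), Cyr61 (0.38 with the slope; -0.0615 to 0.0846 without 1 library) and Dusp1 (0.00345 with array weights, 7.93e-05 by voom; -0.102 to 0.0339), the last 2 being near 0 throughout, apart from Cyr61 with the slope. In NAc 0 genes called became 2 with array weights, 1 with the GC trend removed and 1 with the cortical covariate, and 0 to 3 without 1 library (3 without SNI library 7); in PFC the count was 0 under every alternative run. Between sham regions, Ier2 in NAc over PAG was -0.22 with the GC trend removed, and the 2 genes called in PFC over NAc became 1 with a filter of 2 RPKM, which removes Ier2; leaving out 1 library gave 2 to 3 (3 without NAc library 5 or PFC library 15, where Npas4 passes 2-fold). The median correlation of 0.47 was 0.72 in NAc alone, 0.42 in PFC alone and 0.34 in PAG alone, and 0.38 to 0.54 without 1 library. Cyr61 with Arc was -0.20 in PAG alone. The members' fold changes in NAc and PFC kept their direction under all alternatives run. Ier2, with 18 to 53 reads a library in NAc and PAG sham, is limited most by depth.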
